A study of Mus musculus with 8 samples.

Results

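*Fgf5*, *Otx2*, *Pou3f1*, *Lef1*, *Foxd3*, *Zic2*, *Zic5* and *Sall2* are genes associated with the formative and primed states of the epiblast, and they were taken by symbol, 8 of the 23337 gene names in the table. Their RNA was followed in mouse embryonic stem (ES) cells, 4 clones numbered 6, 20, 30 and 36, each sequenced once at passage 6 and once at passage 16, so that n = 4 libraries per passage and 8 in all. Passage number counts how often a culture was split and replated. Per the labels all cells were wild type, of strain 129S1, obtained from mouse blastocysts and kept in DMEM with LIF, and passage number was the only difference between both groups. All groups share a GFP transgene at *Rosa26*, and the methods of the study name a C57BL6 background for some of its ES cells without saying which were sequenced. Each clone is 1 cell line with 1 library at each passage, so the spread between libraries includes differences between lines, cultures and library preparations.

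The naive state is the one that ES cells kept in LIF resemble, and it corresponds to the epiblast before implantation. *Nanog* and *Esrrb* encode transcription factors of that state. After implantation the epiblast passes through a formative state and then a primed one, in which *Fgf5*, *Otx2* and *Pou3f1* are switched on while naive genes are shut down. LIF cultures without inhibitors of FGF signalling are known to be mixed, with some cells closer to the naive and others to the formative state. RNA from a whole culture gives 1 value per gene, and fewer cells of a type and less RNA per cell cannot be told apart.

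The identity of the cells was checked first against genes fixed for ES cells. As RPKM, reads scaled by the exon length of a gene and by the total of the library, *Dppa5a* was the highest of 6 tested general pluripotency genes, with a mean of 1425, against 124 for *Nanog*, 65.0 for *Esrrb* and 28.4 for *Zic2*, the highest of the 8 epiblast genes. Libraries held between 21394069 and 34295561 reads. In part of the table the libraries are out of step, because names that another name extends by a digit carry each other's values. Those groups hold 5080 names, 21.8% of the table, and none of the 8 genes, *Nanog* or *Esrrb* is among them. *Zic5* has 3 lines of nearby groups out of order within 5 rows, and the other genes have 0. The groups were left out, and 12283 names whose normalized counts averaged 10 or more were tested. A normalized count is the number of reads on a gene divided by 1 size factor for the library. That both clone 6 libraries are 1 line rests on their labels. Over all names tested, the deviation of clone 6 at passage 6 from the mean of its passage correlated at 0.096 with that of clone 6 at passage 16 and at 0.28 with that of clone 36.

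Between the genes, levels can be compared only per length of exon. On the RPKM scale, the means over 8 libraries ran from 28.4 for *Zic2* through 13.1 for *Pou3f1*, 8.40 for *Sall2*, 8.08 for *Otx2*, 7.93 for *Foxd3* and 4.64 for *Zic5* to 1.85 for *Lef1* and 1.66 for *Fgf5*. *Sall2*, *Otx2* and *Foxd3* did not differ beyond their spread, with libraries between 5.10 and 10.7, between 4.53 and 13.8 and between 5.30 and 13.0. The libraries of *Lef1* (0.867 to 2.99) and *Fgf5* (0.531 to 3.20) overlapped as well. Exon length merged all exons of a gene in GENCODE, 8788 bases for *Lef1* and 2501 for *Fgf5*, while reads were counted on the UCSC annotation. The order of the means depends on that length. All 8 genes were read in all 8 libraries, and all passed the minimum of 10. The smallest number of reads behind any value was 42, for *Fgf5* in clone 20 at passage 6.

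*Fgf5* encodes a secreted fibroblast growth factor and is a classical marker of the epiblast after implantation. It lies at chr5:98254184-98277033 on the plus strand (GRCm38). At passage 6 its normalized counts were 228 in clone 6, 37.8 in clone 20, 89.5 in clone 30 and 146 in clone 36. At passage 16 they were 72.8, 145, 79.3 and 140.4 in the same order. The highest and the lowest library were both at passage 6, 6.04-fold apart, and the passages overlapped. Clones 6 and 20 changed places, clone 6 with a log2 change of -1.64 and clone 20 with 1.91, while clones 30 and 36 moved by -0.17 and -0.05. The mean change was 0.01 (SE 0.50), with a 95% interval from -1.12 to 1.14.

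*Lef1* encodes a DNA-binding partner of β-catenin, and lies at chr3:131110297-131224357 on the plus strand. Its normalized counts at passage 6 were 752, 217, 284 and 558 in clones 6, 20, 30 and 36. At passage 16 they were 485, 556, 315 and 491. Clone 6 at passage 6 was again the highest library and clone 20 at passage 6 the lowest, 3.46-fold apart. Clone 30 was low at both passages, and the passages overlapped. The log2 change was 0.17 (SE 0.37), with 1.35 in clone 20 and -0.63 in clone 6.

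*Otx2* encodes a homeodomain factor that acts at enhancers of the early epiblast and later in the forebrain. It lies at chr14:48656781-48667644 on the minus strand. The normalized counts were 1665, 545, 603 and 1099 at passage 6 in clones 6, 20, 30 and 36. They were 996, 985, 791 and 1018 at passage 16. At passage 16 clones 6, 20 and 36 lay between 985 and 1018 and clone 30 was the lowest, whereas at passage 6 the 4 libraries covered 3.05-fold. The log2 change was 0.10 (SE 0.32), and the passages overlapped.

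The genes *Zic2* and *Zic5* encode zinc finger factors of neural and midline development and are neighbours on chromosome 14, at chr14:122475384-122480328 (plus strand) and chr14:122459160-122465658 (minus strand), with 9726 bases between their starts. *Zic2* was at 2941, 1158, 2099 and 2391 normalized counts at passage 6 in clones 6, 20, 30 and 36, and at 2569, 2398, 2514 and 2369 at passage 16. Clone 20 at passage 6 stood below the other 7 libraries. The 4 libraries of passage 16 differed little, with an SD of 0.06 on the log2 scale against 0.58 at passage 6. *Zic5* was at 720, 432, 619 and 653 at passage 6 and at 807, 632, 679 and 571 at passage 16, with the same library lowest. The log2 changes were 0.28 (SE 0.24) for *Zic2* and 0.16 (SE 0.17) for *Zic5*, and the passages overlapped for both.

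*Foxd3* encodes a forkhead factor needed for the upkeep of pluripotent cells and used again in the neural crest. It lies at chr4:99656299-99658671 on the plus strand. Its normalized counts were 398, 862, 638 and 507 at passage 6 in clones 6, 20, 30 and 36, and 388, 342, 585 and 443 at passage 16. The library where most of the other genes were lowest, clone 20 at passage 6, was the highest for *Foxd3*. All 4 clones had a lower value at passage 16, by -0.04, -1.33, -0.12 and -0.20 on the log2 scale, but the passages overlapped and the mean of -0.42 (SE 0.24) did not pass the test.

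*Pou3f1*, also called *Oct6*, encodes a POU factor of the epiblast and of neural progenitors. It lies at chr4:124657646-124660655 on the plus strand. The normalized counts were 1535, 1182, 2462 and 1309 at passage 6 in clones 6, 20, 30 and 36, and 881, 1046, 1705 and 1231 at passage 16. Clone 30 was the highest at each passage and its lower value exceeded every value of the other clones. All 4 clones were lower at passage 16, and the mean log2 change was -0.40 (SE 0.25). *Sall2* encodes a zinc finger factor of the Spalt family and lies at chr14:52311177-52328670 on the minus strand. It was at 1219, 790, 1644 and 1417 normalized counts at passage 6 and at 1280, 1096, 1429 and 1415 at passage 16. Clone 20 was lowest and clone 30 highest at each passage, and the mean log2 change was 0.08 (SE 0.20).

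**Figure D1:**
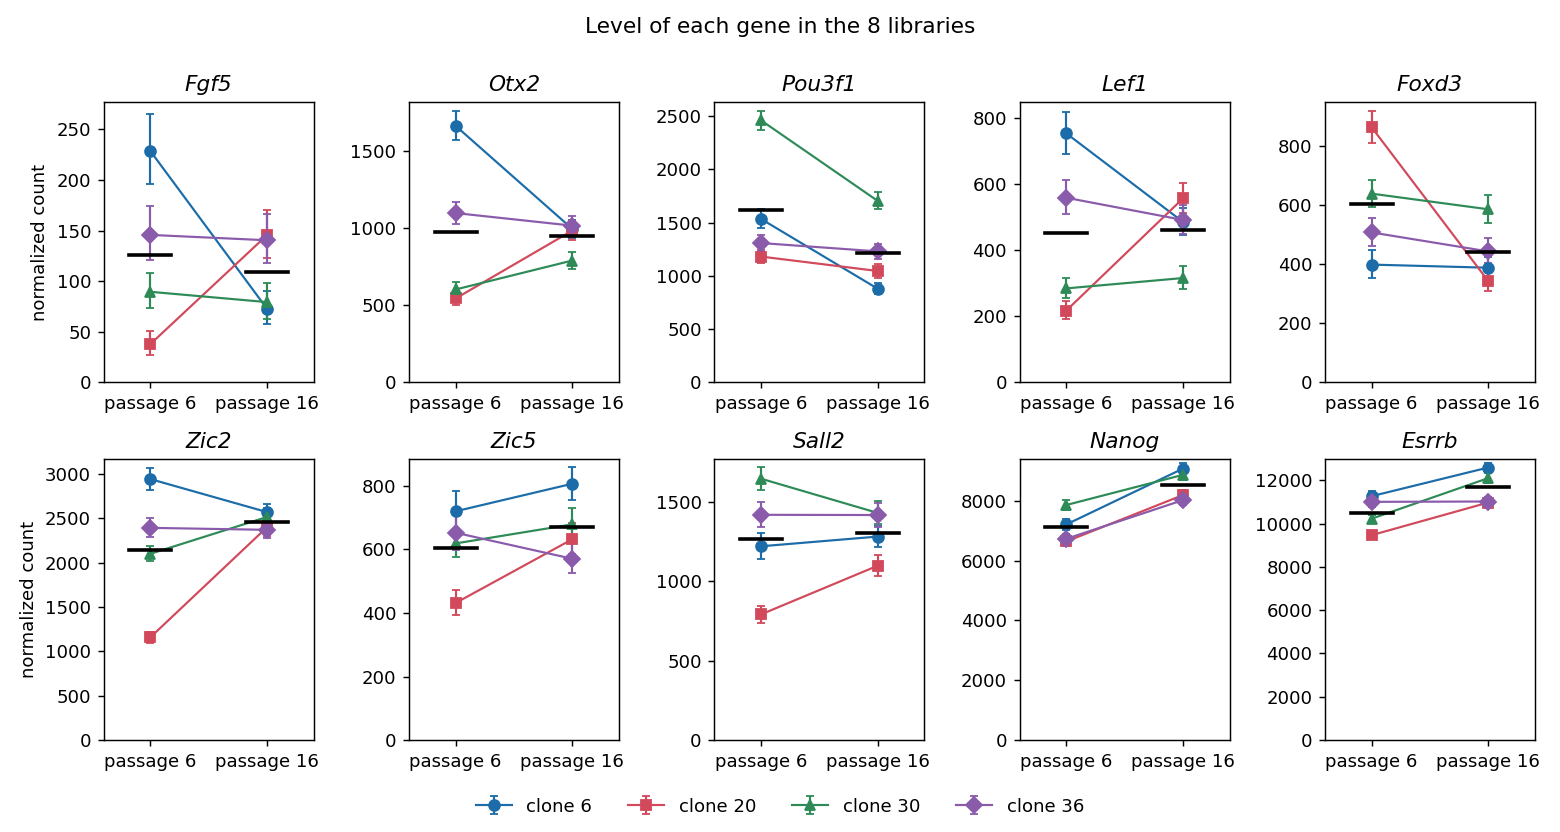
Normalized counts of the 8 epiblast genes, *Nanog* and *Esrrb* by passage, with 1 marker per library, lines joining the libraries of a clone, vertical bars for 95% Poisson intervals of the reads (counting error only) and black bars for the mean of 4 clones. For *Fgf5*, *Lef1*, *Otx2* and *Zic2* the libraries of passage 6 are spread wider than those of passage 16, while the 4 *Nanog* values at passage 16 all lie above those at passage 6.

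Parts of the exons of several of these genes coincide with other transcripts. *Otx2* shares exon bases with *Otx2os1* on the opposite strand and with *Gm49154* on its own. *Pou3f1* and *Lef1* overlap *Gm2164* and *Gm43352* on the opposite strand, and *Foxd3* holds the small *Gm23366*. The libraries kept the strand, but whether the counting used it is not given in the sources used here, so reads from opposite strands cannot be told apart in these values.

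The sequences before the starts of *Fgf5*, *Otx2* and *Lef1*, which moved together across libraries, and of *Foxd3*, which moved against them, are shown for context, with the motifs found in capitals. Each is the 250 bases before the outermost RefSeq start (GRCm38.p6), 5′ to 3′ on the strand of the gene.
Fgf5 (chr5:98253934-98254183, plus strand): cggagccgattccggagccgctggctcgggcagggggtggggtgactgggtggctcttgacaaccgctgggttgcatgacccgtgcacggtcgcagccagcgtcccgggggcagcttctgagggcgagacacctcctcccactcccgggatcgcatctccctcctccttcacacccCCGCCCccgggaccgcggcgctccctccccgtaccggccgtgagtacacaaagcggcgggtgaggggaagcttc
Otx2 (chr14:48667645-48667894, minus strand): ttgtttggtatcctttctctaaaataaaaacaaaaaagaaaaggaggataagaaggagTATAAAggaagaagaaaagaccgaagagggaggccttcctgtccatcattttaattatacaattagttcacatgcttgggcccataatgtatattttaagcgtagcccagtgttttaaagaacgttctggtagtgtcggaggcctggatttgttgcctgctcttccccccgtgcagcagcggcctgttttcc
Lef1 (chr3:131110047-131110296, plus strand): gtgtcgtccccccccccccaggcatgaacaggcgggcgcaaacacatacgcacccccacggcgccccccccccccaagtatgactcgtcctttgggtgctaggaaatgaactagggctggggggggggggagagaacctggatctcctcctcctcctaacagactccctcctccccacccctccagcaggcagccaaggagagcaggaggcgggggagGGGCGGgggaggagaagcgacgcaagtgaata
Foxd3 (chr4:99656049-99656298, plus strand): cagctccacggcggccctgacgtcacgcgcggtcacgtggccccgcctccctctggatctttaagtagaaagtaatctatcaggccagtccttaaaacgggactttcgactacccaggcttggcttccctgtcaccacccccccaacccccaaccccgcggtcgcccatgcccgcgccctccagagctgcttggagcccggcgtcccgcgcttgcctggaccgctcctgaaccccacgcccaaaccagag

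The letters CTTTGA, the core bound by TCF and LEF factors, TAATCC, bound by OTX factors, ATGCAAAT, the octamer of POU factors, GGGCGG, the GC box, and TATAAA, the TATA box, were searched on both strands. None of these words overlaps another in the windows shown. The GC box was present before *Fgf5* and *Lef1* (33.0% of 27025 windows of the same length hold it) and TATAAA before *Otx2* and *Sall2* (13.0% of windows). The words of TCF/LEF, OTX and POU factors were in none of the 6 windows of these genes, against 14.1%, 6.37% and 1.62% of all windows. RefSeq windows were matched for 6 of the 8 genes, and not for *Pou3f1* and *Zic2*. *Foxd3* and *Zic5* held none of the 5 words.

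To address whether these genes shift when ES cells are expanded, passages 6 and 16 were compared by limma on log2(normalized count + 1), a scale on which the change of low genes is understated. None of the 8 passed an adjusted p of 0.05 (Benjamini-Hochberg over all names, adjusted p of at least 0.975), and 0% of the 12283 names passed. Without adjustment 0 of 8 had p under 0.05 in limma, against 3.55% of all names. Both count tests on the whole reads, edgeR and DESeq2, also called 0 of the 8 and 0 of all names, with 441 and 485 names at an unadjusted p under 0.05 against 436 in limma. The values of the passages overlapped for all 8, and did not overlap for 2.37% of names. In the fit 6 of the 8 were higher and 2 lower at passage 16, with a median log2 change of 0.09 against 0.00 over all names. Exact two-sided permutation tests over the 8 libraries gave p between 0.20 and 1.0 for the 8 genes, where 0.0286 is the smallest p that 4 against 4 can give. These fits and permutations did not use the pairing of libraries by clone. With the clone as a block, 0 of the 8 passed. Their lowest adjusted p was then 0.647 in limma, 0.649 in edgeR and 0.226 in DESeq2.

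*Pou3f1* and *Foxd3* were lower at passage 16 in 4 of 4 clones, as were 9.14% of names, and no epiblast gene was higher in 4 of 4, as were 8.14% of names. The direction of the others depended on the clone. In clone 20, 6 of the 8 genes were higher at passage 16, with a median log2 change of 0.70. In clone 6, 6 of the 8 were lower, with a median of -0.41. Clone 36 had all 8 lower, but by a median of -0.10, and clone 30 had 4 higher and 4 lower. The sign of some mean changes turned when 1 library was left out. Without clone 20 at passage 6 the log2 change was -0.46 for *Fgf5*, -0.13 for *Otx2*, -0.12 for *Lef1* and -0.13 for *Sall2*, and without clone 30 at passage 6 it was -0.06 for *Fgf5* and -0.08 for *Otx2*. *Fgf5* was also below 0 without clone 20 (-0.15) or clone 36 (-0.13) at passage 16. Without both libraries of clone 20 the values were -0.62 for *Fgf5*, -0.15 for *Otx2*, -0.22 for *Lef1* and -0.04 for *Sall2*. Leaving out clone 6 at passage 6 turned none of these 4 (0.39, 0.40, 0.47 and 0.08). In the count tests the changes of *Fgf5* (-0.18 in edgeR and -0.19 in DESeq2) and *Otx2* (-0.04 and -0.05) were below 0 with all libraries, so that neither gene has a direction here. Those of *Pou3f1* and *Foxd3* stayed below 0, between -0.58 and -0.18 and between -0.60 and -0.12, when any 1 library or clone was left out.

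**Figure D2:**
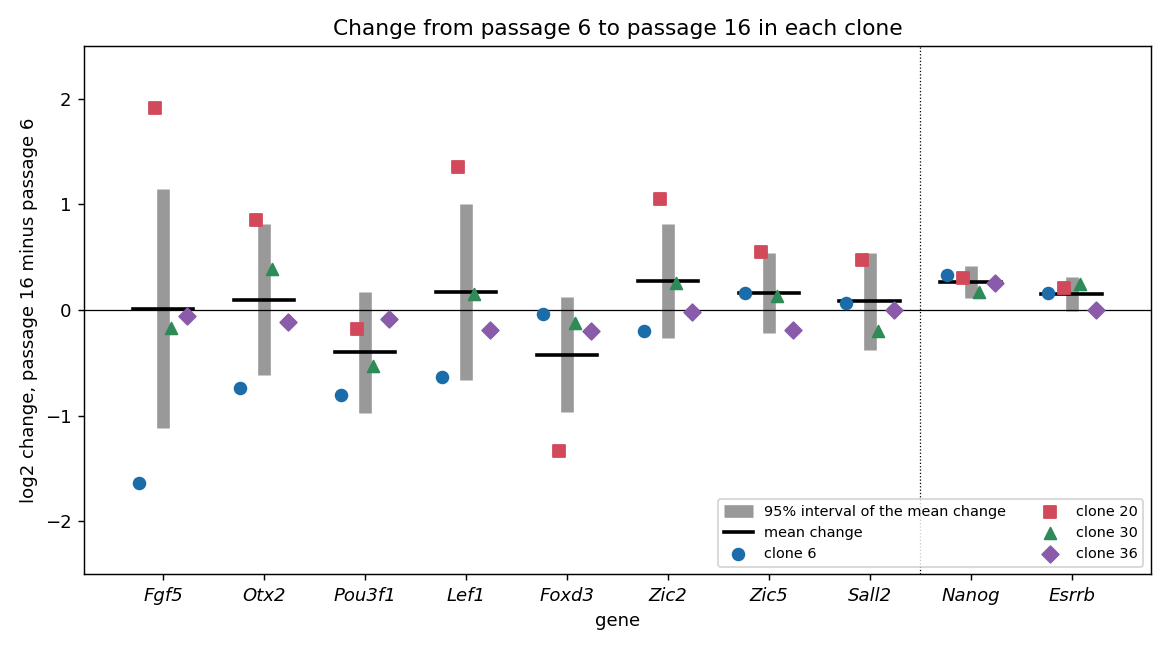
Log2 change from passage 6 to passage 16 for each gene, with 1 marker per clone, a black bar for the mean and a grey bar for its 95% interval in the fit without a clone term. Clone 20 and clone 6 lie on opposite sides of 0 for *Fgf5*, *Otx2*, *Lef1* and *Zic2*, while all 4 clones lie above 0 for *Nanog* and below 0 for *Pou3f1* and *Foxd3*.

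*Nanog* had normalized counts of 7205, 6636, 7855 and 6725 at passage 6 in clones 6, 20, 30 and 36 and of 9071, 8188, 8863 and 8019 at passage 16. Every value at passage 16 was above every value at passage 6, a log2 change of 0.27 (SE 0.069, 95% interval 0.11 to 0.42), higher in 4 of 4 clones. Its adjusted p was 0.975 in limma over all names, and it passed only in DESeq2 with a term for the clone (adjusted p = 0.0212). *Esrrb* was at 11263, 9463, 10224 and 11001 at passage 6 and at 12587, 10970, 12097 and 11017 at passage 16. It was higher in 4 of 4 clones, by 0.15 on the log2 scale (SE 0.072), with 11001 against 11017 in clone 36, a difference of 0.002 on the log2 scale. The passages overlapped and the test was not passed. Beside these, the changes of *Fgf5* ran from -1.64 to 1.91 between clones.

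The 8 epiblast genes varied more between libraries than the median name. The SD over 8 libraries on the log2 scale was 0.80 for *Fgf5*, 0.60 for *Lef1*, 0.51 for *Otx2*, 0.46 for *Pou3f1*, 0.44 for *Foxd3*, 0.41 for *Zic2*, 0.32 for *Sall2* and 0.27 for *Zic5*. All 8 were above the median over names tested, 0.18, and *Nanog* (0.17) and *Esrrb* (0.13) were below it. *Fgf5* stood at the 97.5th percentile of all names, though it also had the fewest reads of the 8. The SD of 4 clones was smaller at passage 16 than at passage 6 for all 8 genes, with a median of 0.53 at passage 6 and 0.27 at passage 16, whereas 50.9% of names had a smaller SD at passage 16. Without clone 20 it was smaller for 6 of 8 (47.2% of names), *Zic5* and *Pou3f1* being the exceptions, and the medians were 0.41 and 0.28. The difference in spread was not tested.

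The clones were then compared with a limma F-test that takes out the passage, in which the libraries of a clone serve as its replicates. None of the 8 genes passed an adjusted p of 0.05, as did 0.505% of names, and 2 of the 8 had an unadjusted p under 0.05 in limma, against 14.1% of names. They were *Pou3f1*, with clone 30 highest, clone 20 lowest and 0.88 between them on the log2 scale (adjusted p = 0.169), and *Sall2*, with the same clones at the ends and 0.72 between them (adjusted p = 0.221). DESeq2 on whole reads called both, with adjusted p = 1.16e-04 for *Pou3f1* and 0.0134 for *Sall2*, where it called 5.69% of names. The edgeR test called neither (0.594% of names), and limma called *Pou3f1* when clone 6 was left out (adjusted p = 0.0489, with 1.87% of names called). Without clone 30 the range between clones of *Pou3f1* was 0.19 (limma adjusted p = 0.970), and that of *Sall2* was 0.30 without clone 20 (limma adjusted p = 0.278) and 0.46 without its passage 6 library (limma adjusted p = 0.235). Although *Fgf5* (0.93) and *Lef1* (1.01) differed more between the means of clones, their adjusted p was 0.729 and 0.447, and libraries of the same clone differed as well. These ranges also rested on single libraries. For *Fgf5* the range was 2.20 without clone 20 at passage 16 and 1.89 without clone 6 at passage 16 (limma adjusted p = 0.183 and 0.326), and for *Lef1* it was 1.58 and 1.55 (limma adjusted p = 0.0660 and 0.265). The median difference between the highest and the lowest clone was 0.80 over the 8 genes and 0.31 over all names.

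Whether the genes move together was described by Pearson r of log2 levels over the 8 libraries. These come from 4 lines and are not independent, so no p is given. *Otx2* and *Lef1* had the closest relation of the 28 pairs (r = 0.97), followed by *Zic2* with *Zic5* (0.89), *Fgf5* with *Lef1* (0.89) and *Fgf5* with *Otx2* (0.86). *Foxd3* ran against *Lef1* (-0.89), *Zic2* (-0.80), *Otx2* (-0.79), *Fgf5* (-0.73) and *Zic5* (-0.71). *Pou3f1* stood apart, with r between -0.32 for *Lef1* and 0.52 for *Sall2*. Of the 28 pairs 19 had a positive r, with a median of 0.44, where the median r of each of these genes with all names lay between -0.01 and 0.01. The r with single names was widely spread. Its 10th to 90th percentile ran from -0.52 to 0.55 for *Pou3f1*, the narrowest of the 8, and from -0.70 to 0.70 for *Lef1*, the widest. An r of 0.44 lies within both ranges.

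Much of this rested on clone 20 at passage 6, the lowest library for 6 of the 8 genes (*Fgf5*, *Otx2*, *Lef1*, *Zic2*, *Zic5* and *Sall2*) and the highest for *Foxd3*. That library was the lowest for 20.7% of all names and the highest for 19.7%, the largest shares of the 8 libraries, with clone 6 at passage 16 next (17.0% and 19.4%). Without it 12 of 28 pairs were positive and the median r was -0.27, whereas without both libraries of clone 6 the values were 19 of 28 and 0.49. The relations of *Otx2* with *Lef1* (0.95), *Fgf5* with *Lef1* (0.80), *Fgf5* with *Otx2* (0.77) and *Foxd3* with *Lef1* (-0.79) stayed on their side of 0. *Foxd3* also remained below 0 with *Otx2* (-0.66), *Zic2* (-0.53), *Fgf5* (-0.44) and *Zic5* (-0.29), while *Fgf5* with *Zic5* went from 0.50 to -0.25 and *Zic2* with *Sall2* from 0.68 to -0.60. With clone 6 at passage 6 left out as well, *Otx2* with *Lef1* was at 0.94, *Fgf5* with *Lef1* at 0.66, *Fgf5* with *Otx2* at 0.53 and *Foxd3* with *Lef1* at -0.81. *Foxd3* had a positive r with *Pou3f1* over 8 libraries (0.44), and without clone 20 at passage 6 also with *Sall2* (0.93, against -0.26 with it).

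**Figure D3:**
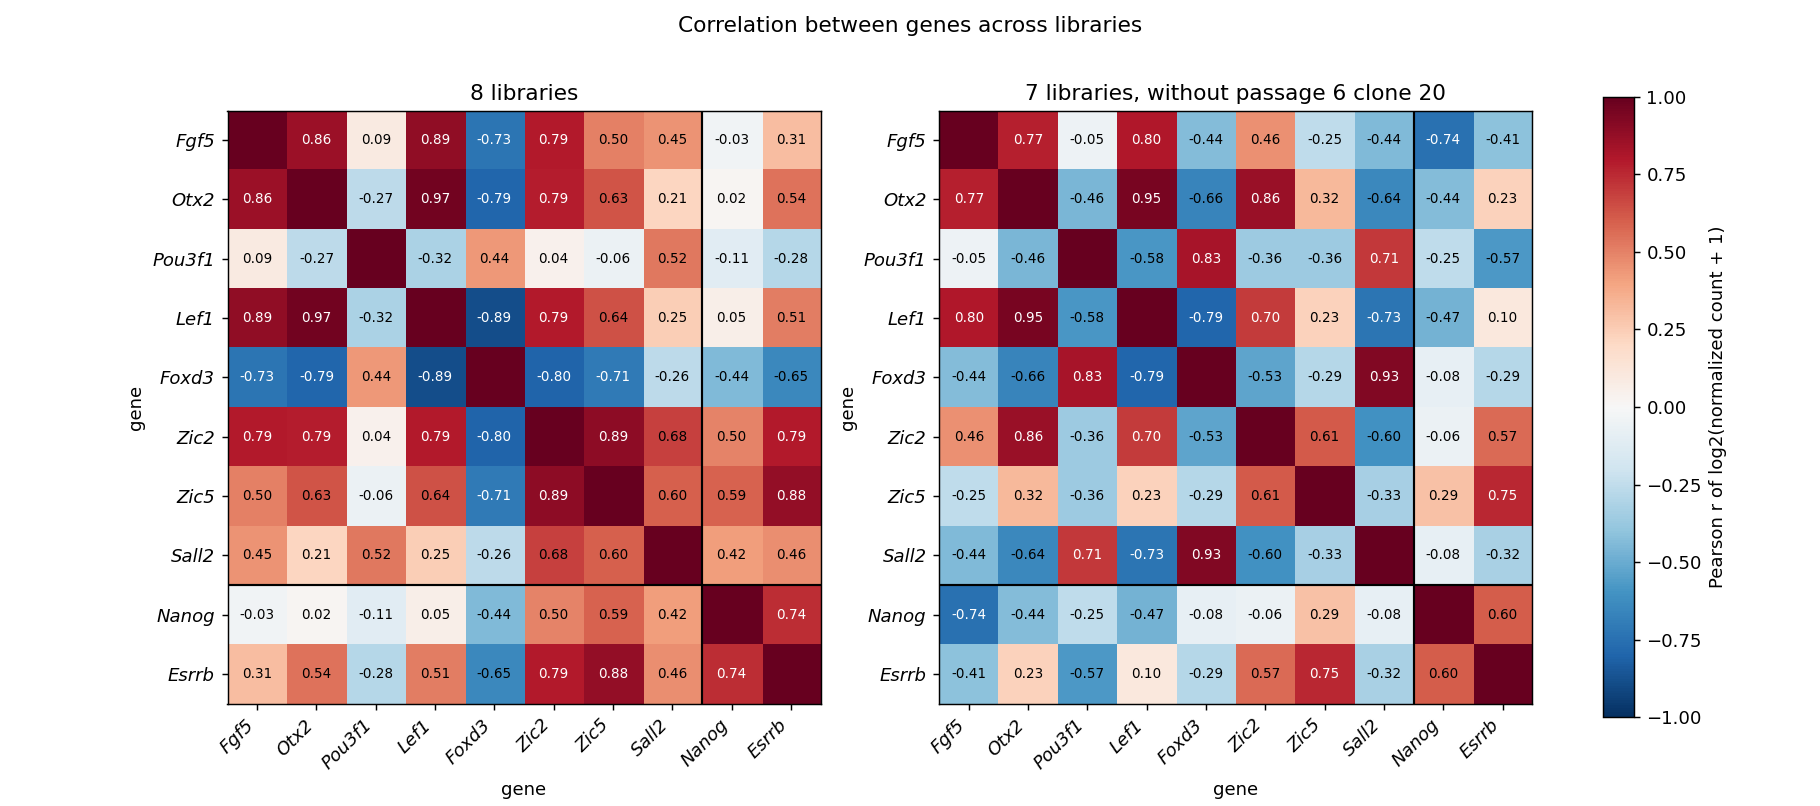
Pearson r between the log2 levels of each pair of genes, over 8 libraries on the left and without clone 20 at passage 6 on the right, with red for positive and blue for negative values. The block of *Otx2*, *Lef1* and *Fgf5* is red in both panels, with r from 0.77 to 0.97, while 8 of the 9 values of *Sall2* change sign between them.

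Against *Nanog*, 5 of the 8 genes had a positive r and the median was 0.04, from -0.44 for *Foxd3* to 0.59 for *Zic5*. Against *Esrrb*, 6 of 8 were positive and the median was 0.49, with 0.88 for *Zic5*, 0.79 for *Zic2*, 0.54 for *Otx2*, 0.51 for *Lef1* and -0.65 for *Foxd3*. Over the 8 libraries, then, *Fgf5* (-0.03), *Otx2* (0.02) and *Lef1* (0.05) had r near 0 with *Nanog*. Without clone 20 at passage 6 these became -0.74, -0.44 and -0.47, and 1 of 8 genes, *Zic5* at 0.29, was positive with *Nanog* (median -0.17). Against *Esrrb* 4 of 8 were then positive, *Zic5* at 0.75 and *Zic2* at 0.57 among them. Since *Nanog* was higher at passage 16, the relation was also taken with the means of each passage removed, which left 4 of 8 positive with *Nanog* (median 0.18) and 7 of 8 with *Esrrb* (median 0.52). Within clones, *Nanog* and *Esrrb* were higher at passage 16 in clone 20, where 6 of the 8 genes were higher, and in clone 6, where 6 were lower. Both were also higher in clone 30, where 4 of the 8 were higher and 4 lower. In clone 36 all 8 were lower, while *Nanog* changed by 0.25 and *Esrrb* by 0.002 on the log2 scale. The share of all names higher at passage 16 ran from 47.8% in clone 30 to 50.4% in clone 36.

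**Figure D4:**
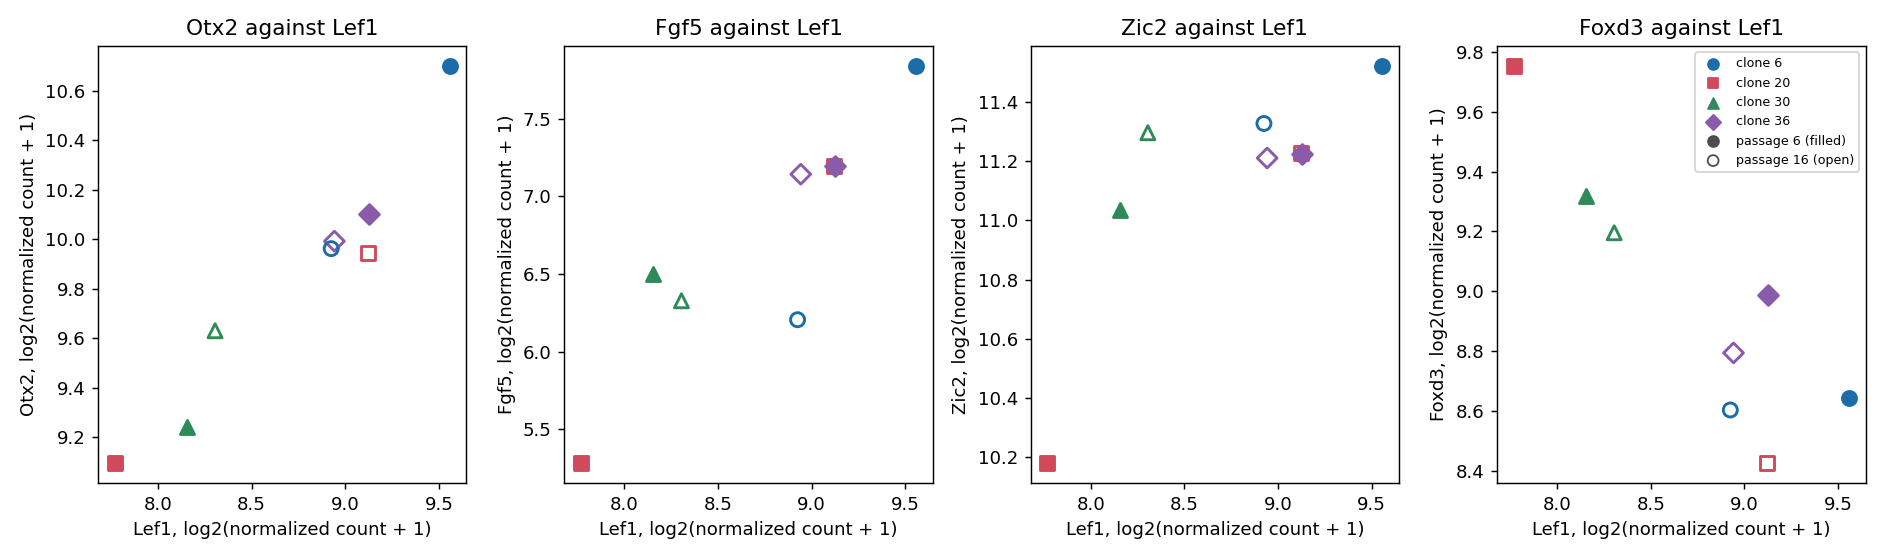
Log2 levels of *Otx2*, *Fgf5*, *Zic2* and *Foxd3* (y axes) against *Lef1* (x axes), with 1 marker per library, its shape and colour giving the clone, filled for passage 6 and open for passage 16. *Otx2* and *Fgf5* are higher and *Foxd3* is lower where *Lef1* is high, and clone 20 at passage 6 is at the low end of *Lef1*, while the *Zic2* values other than that library lie between 11.04 and 11.52.

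For each gene the names whose pattern was most like it over 8 libraries were taken among 9436 names with a mean of at least 100. For *Fgf5* these were *Zc3h4* (r = 0.98) and *Nampt* (0.97), and *Otx2* was close to *Tpd52* (0.98). *Lef1* was most like *Ndufv3* (0.99) and *Orc3* (0.99), *Foxd3* most like *2210411K11Rik* (0.98) and *Cltb* (0.98), and *Pou3f1* most like *Tapbp* (0.97) and *Rnf31* (0.97). For *Zic2* they were *Camk2b* (0.98) and *5730528L13Rik* (0.98), for *Zic5* *Plxdc1* (0.99) and *Clmn* (0.98), and for *Sall2* *D10Wsu102e* (0.95) and *Ppp1r15a* (0.95). Over the 8 genes, between 30 (*Sall2*) and 195 (*Lef1*) of the other 12282 names tested reached r of at least 0.9.

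Markers of primitive endoderm, the other lineage of the inner cell mass, were read in the same libraries. All 7 tested markers of that list were read in every library, with *Gata4* between 252 and 1586 normalized counts, *Gata6* between 217 and 1143 and *Sparc*, the highest of the list, between 9830 and 24548. Their summed level ranged from 20059 to 50850 at passage 6 and from 17444 to 40395 at passage 16, lowest in clone 30 at each passage and highest in clone 36 at passage 6 and clone 20 at passage 16. All 7 had a positive r with *Lef1* (median 0.57) and with *Fgf5* (median 0.55), genes that are themselves correlated at 0.89. The markers varied together as well. Each of the 7 was highest in clone 36 at passage 6 and lowest in clone 30 at passage 16, so they are not 7 separate observations. Those medians lie within the 10th to 90th percentile of r over all names, from -0.70 to 0.70 for *Lef1* and from -0.66 to 0.65 for *Fgf5*. With *Otx2* all 7 were positive as well (median 0.48), while none was with *Pou3f1* (median -0.38) or *Foxd3* (median -0.33). *Zic2* had 5 of 7 positive (median 0.04), and *Zic5* and *Sall2* each had 1 of 7 (medians -0.18 and -0.14). Without clone 20 at passage 6 the medians were 0.71 for *Lef1*, 0.78 for *Fgf5* and 0.56 for *Otx2*, again with all 7 positive. The range of r over all names was not taken without that library. *Zic2* then had 6 of 7 positive (median 0.11). *Zic5* (-0.32), *Sall2* (-0.43), *Pou3f1* (-0.42) and *Foxd3* (-0.47) had none. None of the 7 endoderm markers was at 0, and their part in the variation of *Fgf5*, *Lef1* and *Otx2* was not tested. With *Lef1* the trophoblast markers ran the other way, with 0 of 6 positive and a median of -0.70, about the 10th percentile over all names. Positive were 0 of 6 with *Otx2* (median -0.64), 1 with *Fgf5* (-0.55), and 2 each with *Zic2* and *Zic5* (both -0.18). With *Sall2* 4 of 6 were positive (0.10), with *Foxd3* 5 (0.48) and with *Pou3f1* 6 (0.44). The summed level of the trophoblast markers lay between 2496 and 3967 at passage 6 and between 2858 and 4877 at passage 16.

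*Foxd3*, *Pou3f1*, *Zic2* and *Lef1* are also used by neural crest, neural or mesodermal cells, and markers of these lineages were read beside them. Neural markers summed to 5516 to 7415 normalized counts at passage 6 and 4943 to 6488 at passage 16. Per length of exon *Tubb3* was the highest of them, and *Hes5* and *Neurog2* had mean normalized counts under 10. Neural crest markers summed to 865 to 1299 and 660 to 1460 (led by *Ngfr*), and mesendoderm markers to 186 to 389 and 181 to 472 (led by *Eomes*). With *Lef1*, 3 of 6 neural, 3 of 4 neural crest and 2 of 3 mesendoderm markers had a positive r. Fibroblast markers, of which *Col1a1* was the highest per length of exon, summed to 3890 to 5907 and 4539 to 5935, with 4 of 7 positive with *Lef1*. None of the markers passed the passage test, and 1, the trophoblast marker *Tfap2c*, passed the clone test (limma adjusted p = 0.0294, 0.76 between the highest and the lowest clone), and their part in the levels of the 8 genes was not tested.

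Other genes of the formative and primed epiblast, from a list beside the 8, were 12 that could be tested. None passed the passage test, with 2 higher and 10 lower at passage 16 and a median log2 change of -0.18, against 0.00 over all names. *Utf1*, the highest of that list per length of exon, was at 6904 ± 463 normalized counts (SD, n = 4) at passage 6 and 6084 ± 236 at passage 16. Of 12 naive pluripotency genes that could be tested, *Nanog* and *Esrrb* included, 11 were higher and 1 lower, with a median of 0.14 and none past the test. Beside these, the 8 epiblast genes had 6 higher and 2 lower and a median of 0.09, and the difference between the lists was not tested.

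Partners of the 8 genes in signalling were also read. β-catenin (*Ctnnb1*), through which *Lef1* acts on Wnt targets, was the highest of 13 genes of that list, at 29906 ± 2248 normalized counts at passage 6 and 31292 ± 1070 at passage 16 (SD, n = 4). Of the 13, 10 were higher and 3 lower at passage 16, none past the test, with a median log2 change of 0.03, and 6 of 13 had a positive r with *Lef1*. Of 12 FGF receptors and feedback genes of the ERK pathway, through which FGF ligands such as *Fgf5* signal, 4 were higher and 8 lower, none past the test, with a median of -0.07. *Egr1*, an immediate early gene, and *Spry2*, a feedback inhibitor, were level at the top of that list per length (both 48.1 RPKM). *Egr1* lay between 1542 and 11724 normalized counts and *Spry2* between 2581 and 3118, and 6 of 12 had a positive r with *Fgf5*. Of 12 paralogs, 7 could be tested and *Pou3f4*, *Foxd1*, *Foxd2*, *Foxd4* and *Zic4* had means under 10, so that of the 4 Foxd genes listed *Foxd3* alone was above the minimum. *Sall4*, a related Spalt factor, was the highest paralog, at 9275 ± 829 at passage 6 and 8981 ± 922 at passage 16.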

How the data were processed

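According to the methods of the study, polyA+ RNA was made into strand-specific libraries, and single-end reads were mapped by TopHat2 2.0.10 and Bowtie 1.0.0 to GRCm38 and counted per gene of the UCSC annotation with HTSeq 0.5.3p9. The authors deposited a signal per gene, read counts divided by 1 size factor per library, in 1 table with 0 unused columns of values. Multiplied back, 100% of values were whole reads within 0.01, between 21394069 and 34295561 per library. Intervals from reads cover counting error only. Row order was checked in each library by the sort order of neighbouring rows, each taken as the name joined to its read count. Between 130 and 220 neighbours were out of order in 7 libraries, against 2 in clone 6 at passage 6. Groups of displaced names were left out, not restored.

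The fits used limma 3.58.1 (trend, R 4.3.3) on log2(value + 1) for names with a mean of at least 10, Benjamini-Hochberg adjusted over all names, two-sided, with edgeR 4.0.16 and DESeq2 1.42.0 on whole reads as alternatives. The scripts were tested on simulated data. Pairs were formed from the clone numbers that the labels give. Deviations from passage means correlated between passages of a clone with r = 0.096 (clone 6), 0.27 (clone 20), 0.70 (clone 30) and 0.43 (clone 36), and clone 6 was closer to clone 36 at passage 16 (0.28). Nothing says that passages were separate cultures, so p-values measure the spread between these libraries. Genes named were the 8, *Nanog*, *Esrrb*, listed genes past a test, the highest of each list per length, and up to 2 most similar names per gene, and some listed or similar names are not reported here. The members and the 12 other lists were chosen with earlier results of these data known. Exon lengths came from GENCODE M21 and positions from RefSeq (GRCm38.p6). Listed genes among displaced names were not used. Alternatives were other pseudocounts, filters, scalings and tools, the clone as a block, and leaving out libraries or clones.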

Additional observations from a re-analysis of the deposited data

Results flagged for a closer look

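In a check of 20 sets of 4 libraries (10 genes at each passage), 1 library stood far from the other 3 of its passage. *Otx2* in clone 30 at passage 16 had a log2 level of 9.63, and clones 6, 20 and 36 had 9.95 to 9.99, a gap of 0.87 of the whole range. Chance gives about 1 in 20 sets such a gap. Clone 30 was also low for *Otx2* at passage 6 (9.24), where clone 20 was lower (9.09).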

How the results depend on the processing

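No setting called any of the 8 genes between passages, and counts over all names stayed at 0 except for the whole table as deposited (1) and DESeq2 with the clone as a replicate block (29), with 0 for the block in limma and edgeR. The block changed no call on the 8 genes and added *Nanog* in DESeq2. Leaving out each library or clone gave 0 names between passages.

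Between clones 62 names were called, against 20 for the whole table as deposited, 21 without a passage term, 6 without a trend, 699 in DESeq2 and between 6 and 230 when a library or clone was left out. The count was 184 without clone 6 at passage 6, 125 without clone 20 and 6 without clone 30 at passage 6, 12 without clone 36 at passage 6, and 143, 7 and 9 without clones 20, 30 and 36 at passage 16. It was 230, 193, 6 and 23 without clones 6, 20, 30 and 36. Epiblast genes called were 2 in DESeq2 and between 0 and 1 in the fits that left out a library or clone. The cause was not tested.

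Positive pairs among 28 ranged from 12 to 21 when a library or clone was left out, and genes positive with *Nanog* from 1 to 7, with 3 by Spearman's rho. By rho 16 pairs were positive, the medians were 0.19 over pairs, -0.01 with *Nanog* and 0.29 with *Esrrb*, the lowest value among the 5 genes named next was 0.24, and that of *Foxd3* nearest 0 with them was -0.45. Without clone 20 at passage 6 and without clone 20, signs reversed for the median r over pairs (-0.27 and -0.31), with *Nanog* (-0.17 and -0.14) and with *Esrrb* (-0.09 and -0.12), and for the lowest r among *Fgf5*, *Otx2*, *Lef1*, *Zic2* and *Zic5* (-0.25 and -0.22, against 0.50). When any other library or clone was left out, these values ran from 0.401 to 0.626, from 0.00825 to 0.296, from 0.447 to 0.661 and from 0.429 to 0.684. This set was chosen after its values were seen, as were the spread without clone 20 and the endoderm marker r without clone 20 at passage 6. With 4 libraries per passage, log2 changes of *Fgf5* between -1.12 and 1.14 lay within its 95% interval.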
